A study of Mus musculus with 19 samples.

Results

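The imprinted genes described here are 43 genes of 20 loci outside the Dlk1-Dio3 cluster, chosen by symbol among the 23420 genes counted in each library. RNA was sequenced from 14 induced pluripotent stem cell (iPSC), 3 embryonic stem cell (ESC) and 2 epiblast stem cell (EpiSC) samples of mouse, 1 library each. The iPSC came from fibroblasts of pooled littermate embryos, reprogrammed with a STEMCCA lentivirus carrying Oct4, Klf4, Sox2 and Myc, whose transgenes stayed in the cells. Cells of 129S1/SvImJ, a strain that readily forms iPSC, were derived in serum medium with LIF (ESC/LIF), as male clones 1 and 17 and female clones 5 and 8. Cells of NOD/ShiLtJ (male clones 3 and 35, female clones 7 and 52) and WSB/EiJ (male clones 12 and 25, female clones 23 and 28) were derived and kept in 2iS, the same medium with a GSK3B and a MEK inhibitor. The 129S1/SvImJ male clones 1 and 17 were sequenced again after they were moved to 2iS, at passages 31 and 30 against 21 and 20 in ESC/LIF, so that medium and passage cannot be told apart. All ESC (NOD/ShiLtJ, WSB/EiJ and 129S1/SvImJ, in serum, LIF and inhibitors) and all EpiSC (NOD/ShiLtJ and the 129/Sv line FT129/4) were male and each is a single line. The EpiSC were kept in EpiSC medium, at passages 38 (NOD/ShiLtJ) and 16 (129), so that medium cannot be told apart from the EpiSC state. The ESC were at passage 6 and the iPSC at passages 16 to 31. Passage therefore cannot be told apart from the difference between ESC and the other states. ESC medium held the inhibitors, as did that of all iPSC except the 129S1/SvImJ libraries in ESC/LIF. The groups follow the library titles, which other label fields contradict. Transcripts of 4 genes of Chromosome Y were counted in 13 of 13 libraries with a male title and in 0 of 6 with a female title. Whether libraries came from separate cultures is not given beyond clone and line, so p-values measure the spread between these clones and lines.

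An imprinted gene is transcribed from the copy inherited from the mother or from the copy inherited from the father, set by DNA methylation that is laid down in the germ line at imprinting control regions and kept after fertilization by factors such as ZFP57 and TRIM28. The genes lie in clusters in which a long noncoding RNA often silences its neighbours on the paternal copy, and they are known for roles in fetal growth, placenta and metabolism. Imprints can be lost in cultured pluripotent cells. The counts do not separate the parental copies, so they give the sum of both. By textbook assignment, 23 of the 43 genes are expressed from the paternal and 20 from the maternal copy.

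Read pairs on genes numbered 92996 to 567432 per library, and 3 counts, the limit that a count of 0 allows, equal 4.02 to 36.4 CPM, the count on a gene relative to the size of its library. In 17 libraries 1.15% to 1.74% of the uniquely aligned read pairs were counted on genes, against 5.58% and 5.62% in the NOD/ShiLtJ male iPSC. The kit keeps the strand of each transcript and the strand setting of the counting is not given in the sources used here. Of the 100 genes with the most counts in the 17 libraries, 97 could be placed and 87 of these have exons overlapping an exon of another gene on the opposite strand, against 40 of 97 in the NOD/ShiLtJ male iPSC. A count on a gene may therefore hold reads of the opposite strand. Such overlaps occur in 20 of the 43 imprinted genes and in 5668 of all 23052 genes that could be placed (24.6%). The part of the strand setting in the results was not tested. The NOD/ShiLtJ male iPSC entered no comparison of cell states.

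The naive pluripotency markers summed to 963.4 to 1835 CPM in ESC and 1286 to 2353 in the 12 other iPSC libraries, against 39.87 and 41.29 in EpiSC, where 4 of the 8 were at 0, and all 8 were higher in ESC and in iPSC than in EpiSC. The 8 primed markers summed to 341.7 and 578.1 CPM in EpiSC against 103.6 to 240.9 in ESC and 55.76 to 206.3 in iPSC. The 14 fibroblast markers, which mark feeder cells, summed to 1869 to 2605 CPM in ESC, 193.6 and 1321 in EpiSC and 374.8 to 1126 in the 12 iPSC libraries, where 6 of the 14 were at 0 in every library. Col1a1, a fibroblast collagen, had 32 to 64 counts in ESC and 0 to 3 in iPSC and EpiSC. The iPSC alone are stated to have been depleted of feeder fibroblasts.

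The promoters of 33 of the 43 genes are in the RefSeq table (GRCm38.p6, 250 bases before to 50 after the start), with 51 entries. The letters TGCCGC, the core of the motif that ZFP57 reads when it is methylated, were searched on both strands, where the other strand reads GCGGCA. They occurred in 13 of the 51 entries (25.5%) and in 11.6% of all 32851 entries, and the median number of CpG was 16 in the entries of imprinted genes and 7 in all. A match is a description of letters and not a binding site. Shown first, with the motif in capitals, is 1 promoter with the motif for each of the 5 imprinted genes that held it and differed between cell states or media (a further Mest entry starts 3 bases downstream). The Zdbf2 entry is the upstream of its 2, and the other does not hold the motif. Peg3 and Usp29 follow because they start head to head and their windows overlap on opposite strands without holding the motif.
Mest, chr6:30737800-30738099, plus strand: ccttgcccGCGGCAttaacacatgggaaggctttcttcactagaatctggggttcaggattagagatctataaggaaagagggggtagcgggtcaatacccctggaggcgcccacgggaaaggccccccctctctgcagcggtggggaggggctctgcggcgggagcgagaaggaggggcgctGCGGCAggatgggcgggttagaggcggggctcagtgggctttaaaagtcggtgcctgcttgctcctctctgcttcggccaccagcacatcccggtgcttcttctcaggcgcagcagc
Nnat, chr2:157559828-157560127, plus strand: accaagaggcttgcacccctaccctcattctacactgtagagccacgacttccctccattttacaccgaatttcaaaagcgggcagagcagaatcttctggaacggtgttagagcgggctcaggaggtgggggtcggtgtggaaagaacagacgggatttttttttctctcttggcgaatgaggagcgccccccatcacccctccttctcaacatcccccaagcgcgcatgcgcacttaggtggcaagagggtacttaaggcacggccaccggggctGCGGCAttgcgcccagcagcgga
Plagl1, chr10:13090582-13090881, plus strand: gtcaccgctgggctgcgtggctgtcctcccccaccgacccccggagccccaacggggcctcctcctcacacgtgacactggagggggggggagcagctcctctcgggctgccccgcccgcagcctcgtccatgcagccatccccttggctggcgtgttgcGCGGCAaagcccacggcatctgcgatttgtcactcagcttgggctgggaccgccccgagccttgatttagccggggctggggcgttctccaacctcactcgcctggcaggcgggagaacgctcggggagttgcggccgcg
Grb10, chr11:12037371-12037670, minus strand: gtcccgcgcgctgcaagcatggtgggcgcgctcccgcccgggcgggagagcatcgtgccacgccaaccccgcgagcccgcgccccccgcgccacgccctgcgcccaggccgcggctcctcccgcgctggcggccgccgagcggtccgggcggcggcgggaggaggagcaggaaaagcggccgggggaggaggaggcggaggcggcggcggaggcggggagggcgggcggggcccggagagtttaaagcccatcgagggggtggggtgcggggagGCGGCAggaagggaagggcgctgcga
Zdbf2, chr1:63200108-63200407, plus strand: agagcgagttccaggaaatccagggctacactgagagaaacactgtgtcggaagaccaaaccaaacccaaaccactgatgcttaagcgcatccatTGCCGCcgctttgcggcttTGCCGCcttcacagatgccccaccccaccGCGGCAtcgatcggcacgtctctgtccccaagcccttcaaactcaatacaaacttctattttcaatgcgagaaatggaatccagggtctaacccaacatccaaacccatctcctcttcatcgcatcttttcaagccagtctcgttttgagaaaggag
Peg3, chr7:6730370-6730669, minus strand: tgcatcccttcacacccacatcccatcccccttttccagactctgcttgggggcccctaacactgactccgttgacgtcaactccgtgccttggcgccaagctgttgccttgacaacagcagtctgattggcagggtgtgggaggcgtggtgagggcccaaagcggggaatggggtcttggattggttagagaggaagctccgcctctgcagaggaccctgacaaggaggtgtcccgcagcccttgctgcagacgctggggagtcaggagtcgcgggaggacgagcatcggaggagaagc
Usp29, chr7:6730333-6730632, plus strand: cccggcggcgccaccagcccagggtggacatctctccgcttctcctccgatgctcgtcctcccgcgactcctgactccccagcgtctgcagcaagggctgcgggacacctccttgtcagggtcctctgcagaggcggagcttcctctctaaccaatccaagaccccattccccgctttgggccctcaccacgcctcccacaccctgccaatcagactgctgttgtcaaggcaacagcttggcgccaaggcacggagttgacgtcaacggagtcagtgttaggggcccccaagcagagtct

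Most imprinted genes had few counts, as did most genes in these libraries. Snrpn, Kcnk9 and Rasgrf1 had 0 counts in all 19 libraries, 21 genes had 3 to 99 counts in total and 19 had at least 100. Snrpn shares exons on the same strand with Snurf, which was also at 0. In the 17 libraries the 43 genes together held 0.115% to 0.396% of the gene counts, and 12 of the 43 reached 3 counts in none of them. After a filter on low counts, 19 of the 43 were tested between cell states and 17 between iPSC groups. Of all 23420 genes, 3986 and 4457 were tested in these fits. Since the filter keeps genes with reads in some group, the 20 genes tested in either fit do not stand for all 43, and 23 were tested in neither. Of the 20, 16 passed an adjusted p under 0.05 (edgeR quasi-likelihood test, Benjamini-Hochberg over all genes tested) in at least 1 of 10 comparisons (80%), against 2648 of the 4751 genes tested in either fit (55.7%).

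**Figure D1:**
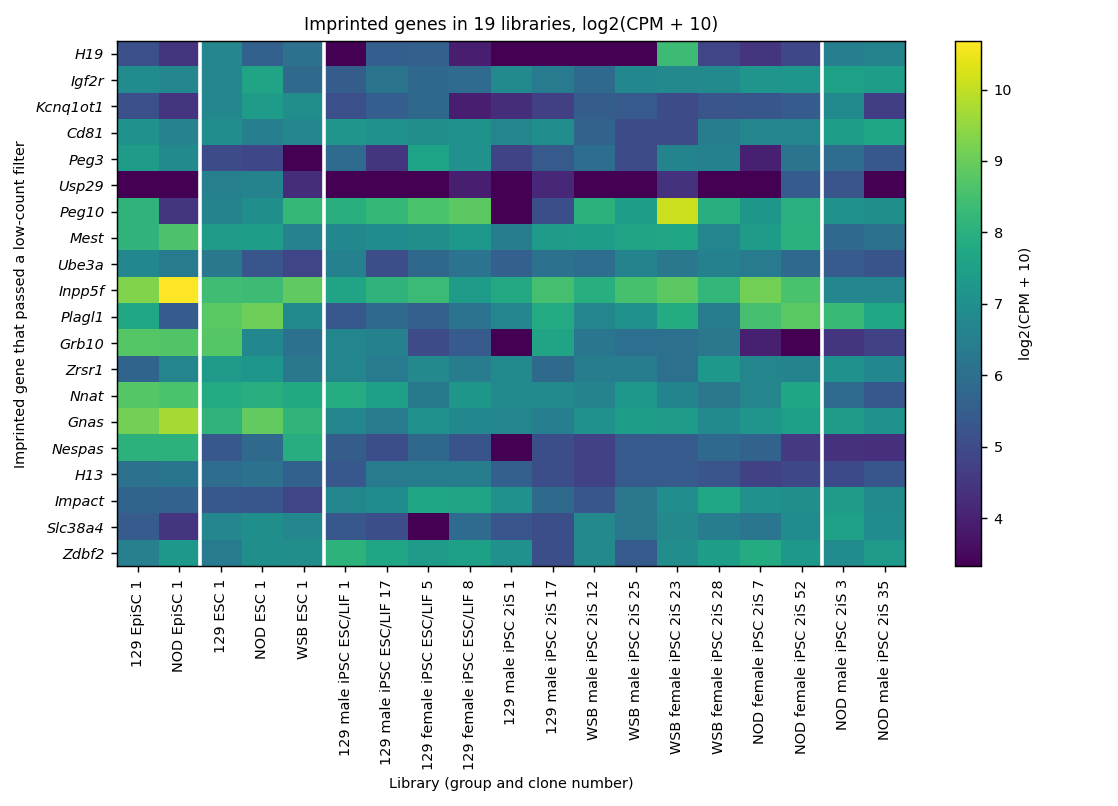
Level of the 20 imprinted genes that passed the low-count filter in at least 1 fit (rows) in each of the 19 libraries (columns), as log2(CPM + 10), with white lines between EpiSC, ESC, iPSC and the NOD/ShiLtJ male iPSC. Gnas, Nnat and Grb10 are bright in both EpiSC columns, Usp29 is bright in the NOD/ShiLtJ and 129S1/SvImJ ESC, and Peg10 is brightest in WSB/EiJ female clone 23.

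The first question was which imprinted genes separated iPSC from the primed EpiSC state. Of the 19 imprinted genes tested, 7 differed between the 12 iPSC libraries and EpiSC (Gnas, Nespas, Inpp5f, Nnat, Grb10, Mest and Impact), 6 lower and 1 higher in iPSC. Over all 3986 genes tested 28.3% differed, 681 genes lower and 448 (11.2%) higher, and the median log2 fold change was -0.20 for the imprinted genes and 0.10 for all genes. The 12 iPSC libraries hold 129S1/SvImJ clones 1 and 17 in both media.

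Gnas, which encodes the stimulatory G protein alpha subunit (chr2:174284320-174346744, plus strand), measured 561.6 CPM in the 129 EpiSC and 814.4 in the NOD/ShiLtJ EpiSC. In ESC it was 266.4 (129S1/SvImJ), 269.8 (WSB/EiJ) and 468.9 CPM (NOD/ShiLtJ). In the iPSC libraries it ranged from 72.8 to 168.6 CPM with a median of 113. The 3 states did not overlap, with EpiSC highest and iPSC lowest. On the log2 scale, iPSC differed from EpiSC by -2.54 ± 0.25 (SE, adjusted p = 2.112e-07, edgeR) and from ESC by -1.51 ± 0.25 (adjusted p = 0.0003528, edgeR), and ESC from EpiSC by -1.04 ± 0.33 (adjusted p = 0.03971, edgeR). The call of ESC against EpiSC was lost under 8 of 12 alternatives (adjusted p of 0.05334 to 0.2371): without the NOD/ShiLtJ EpiSC, the 129 EpiSC, the WSB/EiJ ESC or the 129S1/SvImJ ESC, with no low-count filter, with uniquely aligned read pairs as library size, with male iPSC only and without the 129S1/SvImJ clones in 2iS. Both iPSC calls were kept under every alternative tried.

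Nespas, the noncoding antisense RNA of the same locus (chr2:174281237-174295436, minus strand), overlaps Gnas exons over 988 bases. It had 31 and 45 counts in EpiSC, equal to 256 and 256.3 CPM. In ESC it had 24 counts in WSB/EiJ (231.2 CPM) but 5 in NOD/ShiLtJ (48.84 CPM) and 4 in 129S1/SvImJ (29.6 CPM). In iPSC it ranged from 0 to 47.08 CPM with a median of 30.14. The iPSC were all below EpiSC, while the 129S1/SvImJ ESC lay among them. Against EpiSC the log2 fold change was -3.12 ± 0.46 (SE, adjusted p = 3.222e-05, edgeR). Against ESC it was -1.78 ± 0.49 (adjusted p = 0.03297, edgeR), and without the WSB/EiJ ESC it was -0.43 (adjusted p = 0.75). That call was also lost with uniquely aligned read pairs as library size (adjusted p = 0.07118) and with male iPSC only (0.06665).

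Nnat encodes neuronatin, a small membrane protein (chr2:157560078-157562522, plus strand). It measured 375.9 and 421.2 CPM in EpiSC, 212, 214.6 and 234.4 in ESC, and 65.92 to 223.3 in iPSC with a median of 104. The iPSC lay below EpiSC and overlapped ESC through 129S1/SvImJ male clone 1 in ESC/LIF. Between iPSC and EpiSC the log2 fold change was -1.67 ± 0.31 (SE, adjusted p = 0.0003808, edgeR). ESC did not pass the test against EpiSC (-0.84 ± 0.40, adjusted p = 0.1599).

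Grb10, an adaptor that restrains insulin signalling (chr11:11930508-12038683, minus strand), measured 398.7 and 421.2 CPM in EpiSC. The ESC spread from 57.81 (WSB/EiJ) and 97.68 (NOD/ShiLtJ) to 421.8 CPM (129S1/SvImJ). The iPSC ranged from 0 to 186 CPM with a median of 55.2, below both EpiSC. For iPSC against EpiSC the log2 fold change was -2.88 ± 0.63 (SE, adjusted p = 0.001755, edgeR), and against ESC it was -1.83 ± 0.63 (adjusted p = 0.08963). Within iPSC, the NOD/ShiLtJ females had 1 and 0 counts and the 129S1/SvImJ male clones in 2iS had 0 (clone 1) and 23 (clone 17).

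Mest, a hydrolase of the paternal copy (chr6:30723547-30748465, plus strand), overlaps Copg2 on the opposite strand over 912 bases. It measured 264.3 and 387.3 CPM in EpiSC, 86.71 to 166.1 in ESC, and 74.86 to 249.6 in iPSC with a median of 148.3. ESC and iPSC overlapped and EpiSC lay above both. Relative to EpiSC the log2 fold change was -1.17 ± 0.31 for iPSC (SE, adjusted p = 0.007384, edgeR) and -1.25 ± 0.41 for ESC (adjusted p = 0.03993, edgeR). Without the NOD/ShiLtJ EpiSC the value for iPSC was -0.86 (adjusted p = 0.1827), and with uniquely aligned read pairs as library size it was -0.67 (adjusted p = 0.1147). The ESC call was lost under 8 of 12 alternatives, without any 1 of the 5 lines among them (adjusted p of 0.06039 to 0.2249). Inpp5f, a phosphoinositide phosphatase (chr7:128611328-128696425, plus strand), measured 619.4 CPM in the 129 EpiSC and 1635 in the NOD/ShiLtJ EpiSC, 322.3 to 462.4 in ESC, and 154 to 545.6 in iPSC with a median of 298.1. The EpiSC lines lay above all others and differed from each other. Its log2 fold change to EpiSC was -1.87 ± 0.33 for iPSC (adjusted p = 0.0002154, edgeR), -0.99 (adjusted p = 0.1121) without the NOD/ShiLtJ EpiSC, and -1.60 ± 0.44 for ESC (adjusted p = 0.01753, edgeR). The ESC call was lost without the NOD/ShiLtJ EpiSC, the NOD/ShiLtJ ESC or the 129S1/SvImJ ESC (-0.73, -1.47 and -1.50, adjusted p of 0.06583 to 0.3497), and with uniquely aligned read pairs as library size (adjusted p = 0.05159).

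**Figure D2:**
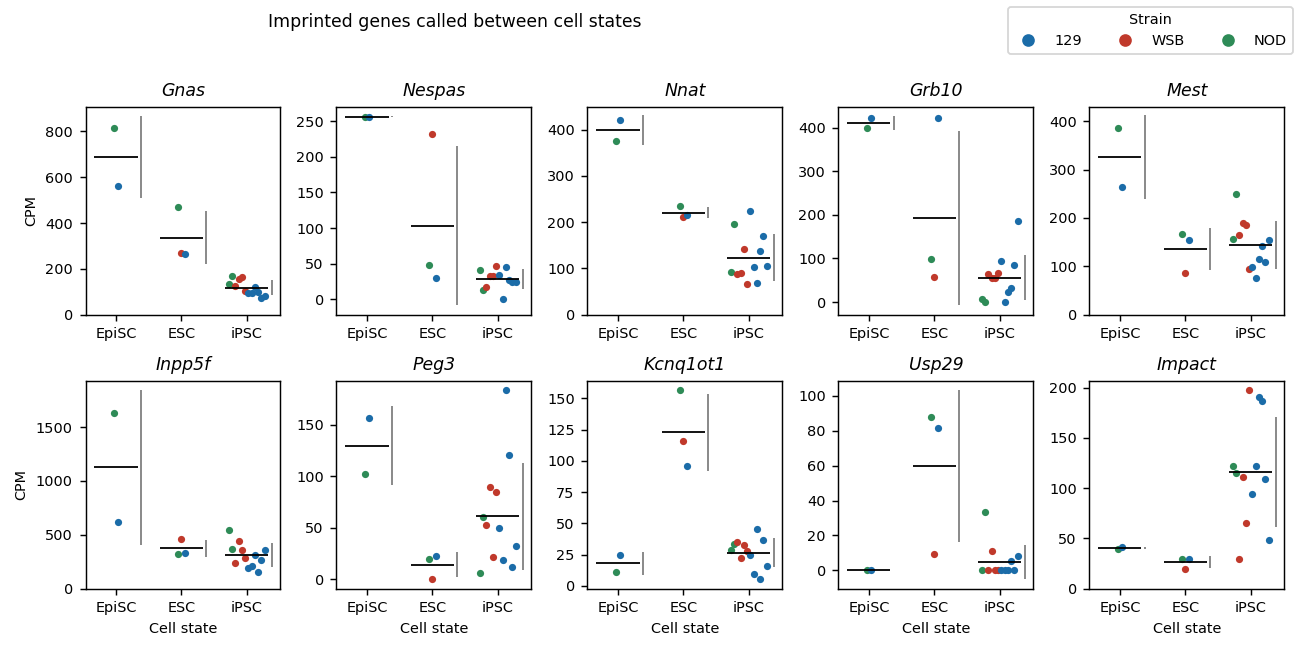
CPM of 10 imprinted genes that were called between cell states, in EpiSC, ESC and the 12 iPSC libraries without NOD/ShiLtJ males, with each point a library coloured by strain, horizontal lines the means and grey lines 1 SD on each side. Gnas falls in order from EpiSC (561.6 and 814.4) to ESC (266.4 to 468.9) to iPSC (72.8 to 168.6), and Kcnq1ot1 and Usp29 are highest in ESC.

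Against ESC, 5 of the 19 imprinted genes tested differed in iPSC: Gnas, Nespas, Kcnq1ot1 and Usp29 were lower and Impact was higher. Over all 3986 genes 6.22% differed, 5.22% lower and 1% higher, and the median log2 fold change was -0.46 for the imprinted genes and 0.05 for all genes. This comparison shares the iPSC libraries with the comparison to EpiSC. The summed fibroblast markers were at 1869 CPM or more in ESC and 1126 or less in these iPSC, Col1a1 was the only 1 of the 3 tested to pass, and their part in these results was not tested.

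Kcnq1ot1, the paternal noncoding RNA that runs through Kcnq1 and silences its neighbours (chr7:143203458-143296549, minus strand), had 13, 16 and 12 counts in the 129S1/SvImJ, NOD/ShiLtJ and WSB/EiJ ESC, equal to 96.2, 156.3 and 115.6 CPM. It had 2 and 3 counts in EpiSC (11.39 and 24.78 CPM) and 1 to 6 in iPSC (5.499 to 45.9 CPM, median 28.64). Among the libraries without the NOD/ShiLtJ male iPSC, the 3 ESC stood above all others, with EpiSC inside the iPSC range. The log2 fold change was -2.18 ± 0.41 for iPSC to ESC (SE, adjusted p = 0.001385, edgeR) and 2.76 ± 0.70 for ESC to EpiSC (adjusted p = 0.01068, edgeR). The second was 2.25 (adjusted p = 0.07765) without the NOD/ShiLtJ EpiSC. Of its 7 neighbours, which Kcnq1ot1 regulates on the paternal copy or which lie in its cluster, Cd81 passed the low-count filter and the other 6 (Kcnq1, Cdkn1c, Phlda2, Slc22a18, Ascl2 and Tspan32) did not.

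Peg3 and Usp29 share the head-to-head start shown above. Peg3, a zinc finger protein (chr7:6703892-6730431, minus strand), had 18 and 19 counts in EpiSC (102.5 and 156.9 CPM), 3, 2 and 0 in the 129S1/SvImJ, NOD/ShiLtJ and WSB/EiJ ESC (22.2, 19.54 and 0 CPM), and 1 to 24 in iPSC (5.804 to 183.6 CPM, median 51.17). All ESC lay below EpiSC, and the iPSC spanned both. In ESC against EpiSC the log2 fold change was -3.06 ± 0.99 (SE, adjusted p = 0.0401, edgeR). Its call was lost when any single ESC or EpiSC line was left out, with adjusted p of 0.05766 to 0.1864, and with uniquely aligned read pairs as library size (0.06072). Usp29, a ubiquitin-specific peptidase (chr7:6730578-6967219, plus strand), had 11 counts in the 129S1/SvImJ ESC, 9 in the NOD/ShiLtJ ESC and 1 in the WSB/EiJ ESC, 0 in both EpiSC and 0 to 5 in iPSC, with 8 of 12 iPSC libraries at 0. The WSB/EiJ ESC overlapped the iPSC. The log2 fold change of iPSC to ESC was -3.37 ± 0.93 (SE, adjusted p = 0.0336, edgeR), and the call was lost with DESeq2 (adjusted p = 0.06361) and without the 129S1/SvImJ clones in 2iS (adjusted p = 0.06001). Without the NOD/ShiLtJ or the 129S1/SvImJ ESC, Usp29 did not pass the low-count filter. Zim3, whose exons overlap those of Usp29 on the opposite strand over 2582 bases, had 31, 51 and 11 counts in the same 3 ESC and -3.05 ± 0.62 (adjusted p = 0.003063, edgeR) in iPSC against ESC. Summed over the 17 libraries there were 5.66 counts on Zim3 for each on Usp29.

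Impact, a translation regulator of the paternal copy, was the gene higher in iPSC. It had 4, 3 and 2 counts in the 129S1/SvImJ, NOD/ShiLtJ and WSB/EiJ ESC (29.6, 29.3 and 19.27 CPM), 7 and 5 in the NOD/ShiLtJ and 129 EpiSC (39.87 and 41.29 CPM), and 5 to 34 in iPSC (29.29 to 197.8 CPM, median 113.1). WSB/EiJ male clone 12 was the iPSC that reached the range of the other states. The log2 fold change was 2.11 ± 0.54 to ESC (SE, adjusted p = 0.02138, edgeR) and 1.50 ± 0.56 to EpiSC (adjusted p = 0.04894, edgeR). With male iPSC alone, which match the sex of the other states, these were 1.47 (adjusted p = 0.1662) and 0.95 (adjusted p = 0.2371). The call against ESC was lost when any of the 3 ESC was left out, with adjusted p of 0.08755 to 0.1047, and that against EpiSC when either EpiSC was left out (0.1982 and 0.2177), with DESeq2 (0.06522) and with its size factors (0.05518).

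ESC differed from EpiSC in 5 of the 19 imprinted genes tested, Kcnq1ot1 higher and Gnas, Peg3, Mest and Inpp5f lower in ESC. Over all 3986 genes 15.1% differed, 6.85% higher and 8.23% lower. Igf2r, Cd81, Ube3a, Zrsr1, Slc38a4, Plagl1, Peg10, H19 and Zdbf2 did not pass the test in the state comparisons. The growth factor receptor gene Igf2r measured 96.82 and 107.4 CPM in EpiSC, 48.17 to 185.6 in ESC and 34.74 to 134.9 in iPSC. Ube3a, a ubiquitin ligase, measured 74.04 and 99.1 CPM in EpiSC, 19.27 to 66.6 in ESC and 24.27 to 87.41 in iPSC, and Zrsr1, a relative of a splicing factor, measured 41.29 and 91.13, 67.44 to 148, and 48.52 to 141.3. The ranges of ESC and iPSC overlapped for each of these 3 genes. Plagl1, a zinc finger transcription factor, differed by line, with 34.17 CPM in the NOD/ShiLtJ EpiSC and 198.2 in the 129 EpiSC, and 527.5, 436.6 and 106 CPM in the NOD/ShiLtJ, 129S1/SvImJ and WSB/EiJ ESC.

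**Figure D3:**
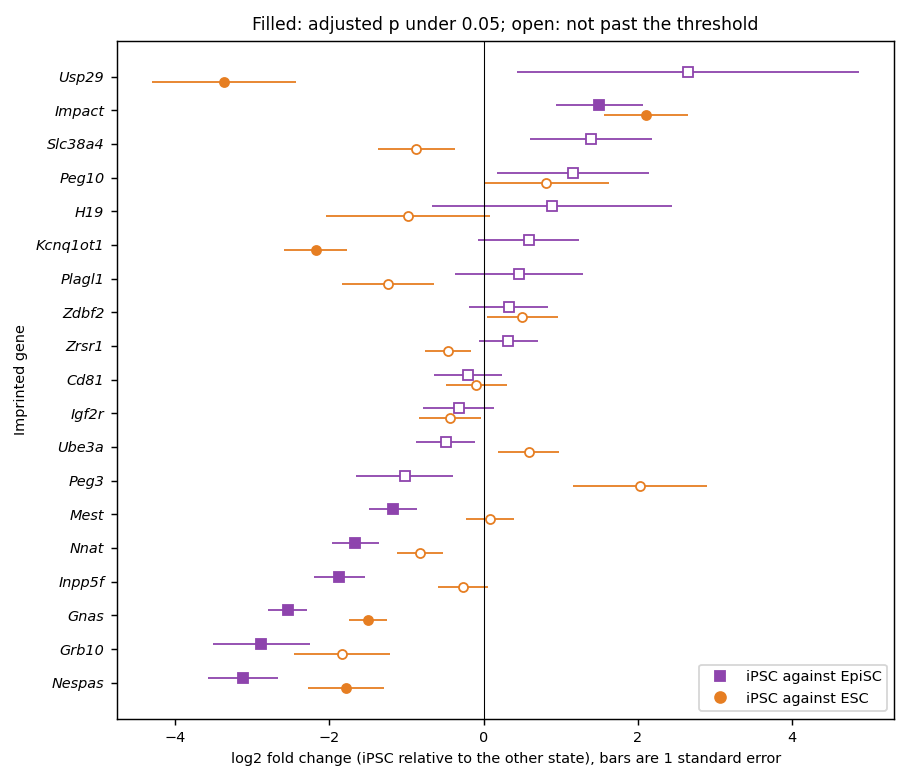
Log2 fold change with 1 SE of the 19 imprinted genes tested, for iPSC against EpiSC (squares) and iPSC against ESC (circles), filled where the adjusted p was under 0.05. Gnas and Nespas are filled to the left in both, Impact to the right in both, and Kcnq1ot1 and Usp29 to the left against ESC alone.

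Regulators of imprints and DNA methylation were described from a list of 17, of which 15 were tested. The list holds factors that keep methylation, enzymes that lay it down and enzymes that oxidize methylcytosine. Against EpiSC, 6 were higher in iPSC and 2 lower, and 5 were higher in ESC. Against ESC, 0 of the 15 passed in iPSC by edgeR or DESeq2, with 1 at an unadjusted p under 0.05, and their log2 fold changes ran from -0.68 to 0.60. Zfp57, which binds the methylated copy of imprinting control regions, was higher than in EpiSC in iPSC (1.73 ± 0.35, adjusted p = 0.0009644, edgeR) and in ESC (1.77 ± 0.40, adjusted p = 0.004407, edgeR). Dnmt3l, a cofactor of DNA methylation in the germ line, differed by 5.08 ± 0.94 in iPSC (adjusted p = 0.0004092, edgeR), and Tet2, which oxidizes methylcytosine, by 4.33 ± 0.64 (adjusted p = 3.753e-05, edgeR). In EpiSC, Dnmt3l had 0 and 1 counts and Tet2 had 0 and 3, at or below the 3-count limit. The 2 lower in iPSC were the DNA methylase genes Dnmt3a (-1.68 ± 0.55, adjusted p = 0.02566, edgeR) and Dnmt3b (-1.20 ± 0.40, adjusted p = 0.02834, edgeR). The maintenance methylase gene Dnmt1 did not pass in iPSC against EpiSC (0.51 ± 0.26, adjusted p = 0.1513). Of 29 neighbouring genes of the imprinted clusters in the files 7 were tested. Among them Usp34 was lower (-1.18 ± 0.27, adjusted p = 0.002769, edgeR) and Cobl higher (2.81 ± 0.75, adjusted p = 0.007587, edgeR) in iPSC than in EpiSC.

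The culture medium was addressed with the 129S1/SvImJ male clones 1 and 17 in ESC/LIF and later in 2iS. In 2iS, 3 of the 17 imprinted genes tested differed, Peg10 and Zdbf2 lower and Plagl1 higher. Over all 4457 genes 2.54% differed, 1.79% lower and 0.74% higher. Peg10, a gene derived from a retrotransposon that is needed for the placenta (chr6:4747306-4760517, plus strand), had 48 counts in clone 1 in ESC/LIF and 0 in 2iS, and 24 in clone 17 in ESC/LIF and 3 in 2iS. These equal 238.2 and 291.2 CPM in ESC/LIF and 0 and 24.26 in 2iS. The summed level in 2iS was 0.0513 of that in ESC/LIF (95% counting interval 0.0103 to 0.156). Both clones were lower in 2iS, and all other iPSC measured at least 115.9 CPM. The fitted log2 fold change was -4.26 ± 0.80 (SE, adjusted p = 0.001102, edgeR) and kept its call with the clone as a replicate block.

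Zdbf2 (chr1:63273265-63314576, plus strand) fell from 263 to 121.6 CPM in clone 1 and from 194.1 to 24.26 in clone 17. Plagl1 (chr10:13060504-13131694, plus strand) rose from 29.77 to 93.57 CPM in clone 1 and from 48.53 to 218.3 in clone 17. The groups did not overlap for either gene. The log2 fold changes were -1.75 ± 0.48 for Zdbf2 (SE, adjusted p = 0.0411, edgeR) and 2.13 ± 0.56 for Plagl1 (adjusted p = 0.03404, edgeR). With the clone as a replicate block in these 4 libraries alone, the paired fit gave an adjusted p of 0.08827 for Zdbf2 and 0.05614 for Plagl1, and 1 imprinted gene, Peg10, was called. The call of Zdbf2 was also lost with uniquely aligned read pairs as library size. Both calls were lost with DESeq2 (adjusted p of 0.1812 for Zdbf2 and 0.1113 for Plagl1) and without any of 3 of the 4 libraries. Without clone 17 in 2iS the values were -0.95 (adjusted p = 0.5463) and 1.38 (adjusted p = 0.5268), without clone 1 in ESC/LIF -1.51 (0.416) and 1.65 (0.5169), and without clone 17 in ESC/LIF -1.91 (0.05543) and 2.38 (0.06329). Grb10 moved in opposite directions in the clones, from 94.28 to 0 CPM in clone 1 and from 84.93 to 186 in clone 17. Among the regulators of imprints and DNA methylation 1 of 14 tested was called, Tet1, which oxidizes methylcytosine, at -1.42 ± 0.31 (adjusted p = 0.007247, edgeR).

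**Figure D4:**
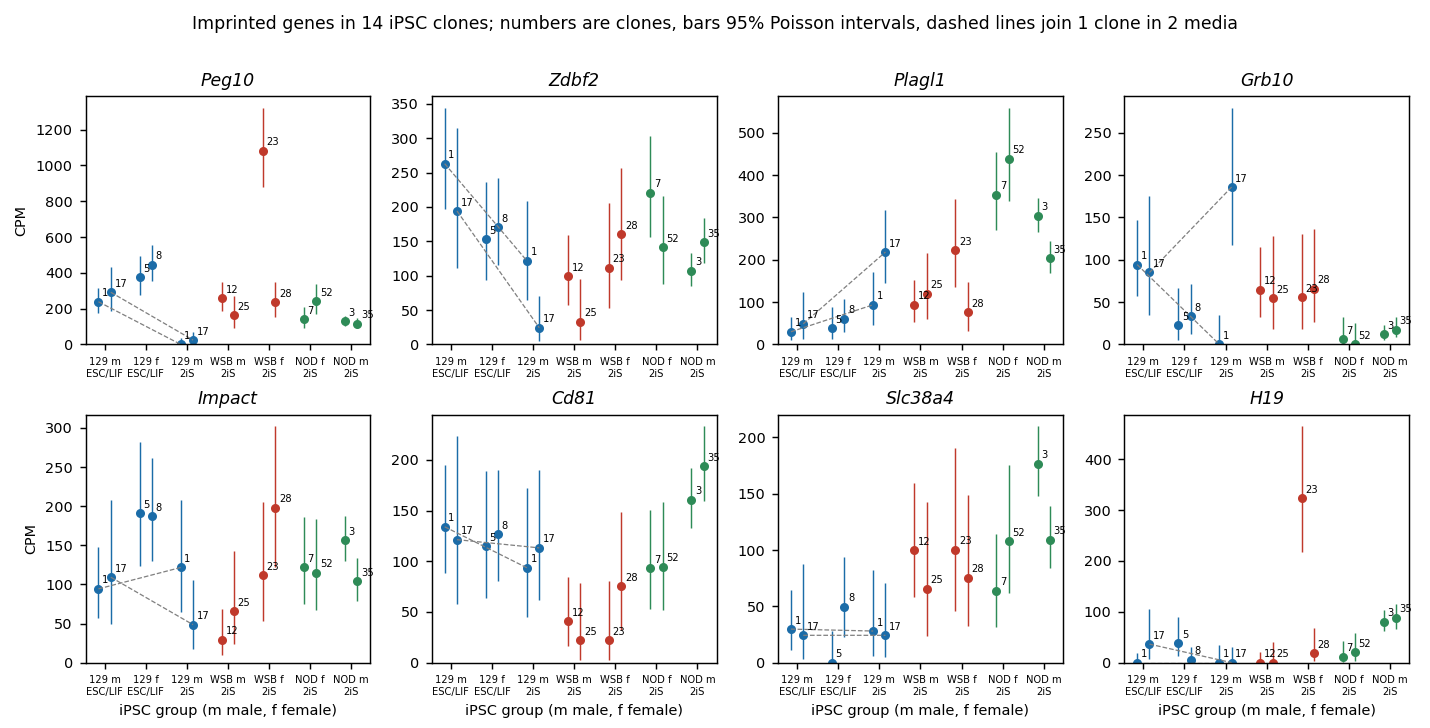
CPM of 8 imprinted genes in the 14 iPSC libraries by strain, sex and medium, with the clone number beside each point, 95% Poisson intervals of the count as bars and dashed lines between the ESC/LIF and 2iS libraries of 129S1/SvImJ clones 1 and 17. Peg10 drops to 0 and 24.26 in those clones in 2iS and reaches 1082 in WSB/EiJ female clone 23, where H19 is 323.4.

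Strain was compared in the same medium between the WSB/EiJ and 129S1/SvImJ males in 2iS. The WSB/EiJ clones were derived in 2iS and were at passage 16. The 129S1/SvImJ clones were derived in ESC/LIF, moved to 2iS, and were at passages 31 and 30. Strain therefore cannot be told apart from passage and the medium of derivation. Of 17 imprinted genes tested 1 differed, Peg10, and over all genes 3.48% did, 2.18% higher and 1.3% lower. Peg10 had 44 and 15 counts in WSB/EiJ clones 12 and 25 (257.7 and 163.9 CPM) against 0 and 3 in the 129S1/SvImJ clones. The log2 fold change was 4.02 ± 0.82 (SE, adjusted p = 0.002633, edgeR), and its call was lost without WSB/EiJ clone 12 (adjusted p = 0.08628) or 129S1/SvImJ clone 1 (adjusted p = 0.06147). The same 129S1/SvImJ libraries enter the comparison of media, where these clones had a mean Peg10 level of 264.7 CPM in ESC/LIF.

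The 4 WSB/EiJ iPSC in 2iS differed from the 4 129S1/SvImJ iPSC in ESC/LIF in 3 of 17 imprinted genes, Cd81 lower and Plagl1 and Slc38a4 higher, against 12% of all genes, 6.28% lower and 5.72% higher. Strain and medium cannot be told apart in it. Cd81, a tetraspanin of the cell surface, measured 41, 21.85, 22.3 and 75.34 CPM in WSB/EiJ clones 12, 25, 23 and 28, all below the 114.7 to 134 CPM of the 129S1/SvImJ clones. Its log2 fold change was -1.56 ± 0.35 (SE, adjusted p = 0.002442, edgeR), and the call was kept under all 12 alternatives. Between the males of both strains in 2iS it was -1.59 ± 0.53 (adjusted p = 0.1008, edgeR). R74862, with exons on the opposite strand of Cd81, measured 1360 to 1980 CPM in the 4 WSB/EiJ iPSC and 1960 to 3021 in the 4 129S1/SvImJ iPSC. The alternatives did not change the strand setting of the counting, and its part in the Cd81 call was not tested. Slc38a4, an amino acid transporter, measured 65.56 to 100.4 CPM in WSB/EiJ and 0 to 49.49 in 129S1/SvImJ, without overlap. Its log2 fold change was 1.62 ± 0.47 (adjusted p = 0.02027, edgeR), and its call was lost without any of 4 libraries (WSB/EiJ clone 12 or 23, or 129S1/SvImJ clone 1 or 5) and with DESeq2 (adjusted p = 0.06962). Plagl1 measured 75.34 to 223 CPM in WSB/EiJ and 29.77 to 60.49 in 129S1/SvImJ, with a log2 fold change of 1.53 ± 0.40 (adjusted p = 0.009155, edgeR). Its call was lost without WSB/EiJ clone 23 (1.07, adjusted p = 0.1351) or 129S1/SvImJ male clone 1 (1.29, adjusted p = 0.1024).

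Females of WSB/EiJ and NOD/ShiLtJ, both in 2iS, differed in 3 of 17 imprinted genes, against 2.58% of all genes, 1.41% higher and 1.17% lower. H19, the maternal noncoding RNA downstream of Igf2, had 29 counts in WSB/EiJ clone 23 (323.4 CPM), 2 in clone 28 (18.83 CPM) and 2 and 3 in NOD/ShiLtJ clones 7 and 52 (11.61 and 20.23 CPM). Peg10 measured 1082 and 235.4 CPM in WSB/EiJ clones 23 and 28 and 139.3 and 242.8 in NOD/ShiLtJ clones 7 and 52. Clone 23 was high in both genes while clone 28 lay among the NOD/ShiLtJ clones. The log2 fold changes of 3.37 ± 0.90 for H19 (SE, adjusted p = 0.03819, edgeR) and 1.80 ± 0.42 for Peg10 (adjusted p = 0.01236, edgeR) became 0.30 (adjusted p = 0.968) and 0.36 (adjusted p = 0.7923) without clone 23. Without NOD/ShiLtJ clone 7 both calls were lost (3.01 and 1.43, adjusted p = 0.2007 and 0.1801), and without NOD/ShiLtJ clone 52 that of H19 was (3.78, adjusted p = 0.09309). Plagl1 was lower in WSB/EiJ (223 and 75.34 CPM against 354 and 438.4, -1.40 ± 0.40, adjusted p = 0.0492, edgeR), a call lost under 6 of 8 alternatives, among them without NOD/ShiLtJ clone 7 or 52 or WSB/EiJ clone 28 (adjusted p of 0.07272, 0.2381 and 0.4607).

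Female iPSC of WSB/EiJ and 129S1/SvImJ (2iS and ESC/LIF) differed from the males of the same strains and media in 1 of 17 imprinted genes, Impact, which was higher, against 0.965% of all genes, 0.673% higher and 0.292% lower. Impact measured 111.5, 197.8, 191.2 and 187 CPM in female clones 23, 28, 5 and 8, and 29.29, 65.56, 94.28 and 109.2 in male clones 12, 25, 1 and 17. These 8 libraries did not overlap by sex. The comparison leaves out the 129S1/SvImJ males in 2iS and all NOD/ShiLtJ iPSC, so it does not cover every iPSC. The log2 fold change was 1.41 ± 0.33 (SE, adjusted p = 0.03005, edgeR), and its call was lost without any of 6 of the 8 libraries, with values of 1.09 to 1.42 and adjusted p of 0.05802 to 0.2942. DESeq2 gave no adjusted p for 14 of the 17, Impact among them. The difference of the sex effect between the strains passed for 0 of 17 imprinted genes (edgeR and DESeq2), with 2 at an unadjusted p under 0.05, against 0.0897% of all genes, 0.0224% higher and 0.0673% lower.

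NOD/ShiLtJ males differed from NOD/ShiLtJ females in 5 of 17 imprinted genes, H19 and Cd81 higher and Mest, Inpp5f and Nnat lower, against 38.9% of all genes, 14.4% higher and 24.6% lower. Inpp5f measured 95.1 and 95.15 CPM in male clones 3 and 35 against 545.6 and 371 in female clones 7 and 52, a log2 fold change of -2.25 ± 0.31 (SE, adjusted p = 3.964e-07, edgeR). Mest measured 46.88 and 57.09 against 156.7 and 249.6 CPM (-1.94 ± 0.34, adjusted p = 2.316e-05, edgeR), and Nnat 49.56 and 31.14 against 92.86 and 195.6 CPM (-1.76 ± 0.39, adjusted p = 0.0004783, edgeR). H19 measured 80.37 and 88.23 against 11.61 and 20.23 CPM (2.40 ± 0.85, adjusted p = 0.02567, edgeR), and Cd81 160.7 and 193.8 against 92.86 and 94.43 CPM (0.93 ± 0.33, adjusted p = 0.02728, edgeR). Males and females did not overlap in these 5 genes. The genes were picked by this same test, and the share of all genes without overlap was not counted. The calls of H19 and Cd81 were both lost with DESeq2 (adjusted p = 0.476 and 0.2683) and without female clone 7 (0.1439 and 0.1305) or 52 (0.05734 and 0.1104), that of Nnat was lost without female clone 52 (-1.12, adjusted p = 0.1087), and that of Cd81 also without male clone 35 (0.1445) and with no low-count filter (0.1071). The directions of Mest, Inpp5f and Nnat depend on the scaling, and the share of read pairs on genes differed as given above. Genes with opposite-strand exons held 38.3% and 38.8% of the counts on placed genes in these males, against 61.3% to 76.8% in the 17 other libraries. H19, Cd81, Mest and Nnat have such exons and Inpp5f has not. The part of either difference in these calls was not tested. With uniquely aligned read pairs as library size, which moved the median of all genes by 2.43, Mest, Inpp5f and Nnat turned to 0.51, 0.17 and 0.68, and 14 of the 17 were called higher, where 79.1% of all genes were called. The summed fibroblast markers were at 2792 and 3871 CPM in the males, with 8 of the 14 at 0, against 1018 and 1126 in the females, and the naive markers at 2662 and 3302 against 1322 and 1753, and their part in these results was not tested. Within the males, Kcnq1ot1 was higher in clone 3 (78 counts, 104.5 CPM) than in clone 35 (9 counts, 15.57 CPM), as was Usp29 (21 against 0 counts, with 121 against 6 on Zim3).

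**Figure D5:**
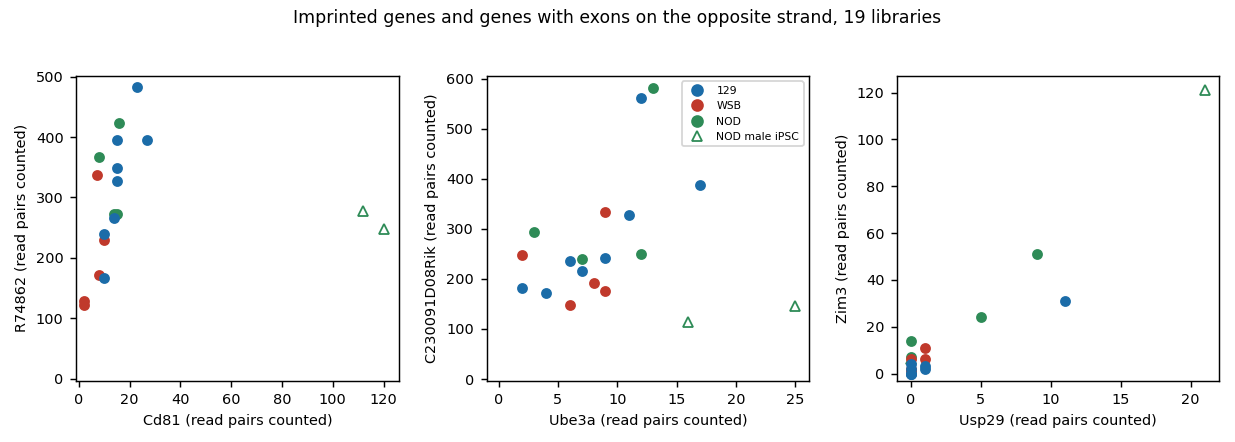
Read pairs counted on 3 imprinted genes (horizontal axes) and on the gene with exons on the opposite strand (vertical axes) in the 19 libraries, with open triangles for the NOD/ShiLtJ male iPSC. R74862 and C230091D08Rik outnumber Cd81 and Ube3a by 23.4 and 34.9 in the 17 other libraries and by 2.26 and 6.32 in the triangles, while Zim3 outnumbers Usp29 by 5.66 and 6.05.

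For Cd81 and Ube3a the ratio to the opposite-strand gene differed between the library sets, at 23.4 counts on R74862 for each on Cd81 in the 17 libraries against 2.26 in the NOD/ShiLtJ male iPSC, and 34.9 counts on C230091D08Rik, the host transcript of small nucleolar RNAs that runs antisense to Ube3a, for each on Ube3a against 6.32. H13, a signal peptide peptidase, was tested between iPSC groups and did not pass. It had 3 counts in each of the 6 WSB/EiJ and NOD/ShiLtJ female and WSB/EiJ male libraries in 2iS, 3 and 4 in the 129S1/SvImJ males in 2iS, and 6 to 14 in ESC/LIF. The libraries differ in size, and 3 counts equal 17.41 to 33.45 CPM in those 6. In ESC/LIF, 129S1/SvImJ male clone 1 measured 29.77 CPM, inside that range, and the other clones 72.8 to 76.98.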

How the data were processed

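Libraries were made with a stranded mRNA kit and sequenced as read pairs. The authors trimmed reads with Trimmomatic, aligned them to GRCm38 with TopHat2 2.1.1 (version in the submitters' processing notes) and deposited raw HTSeq counts per gene symbol for each library, made with the intersection-nonempty rule. Values are these counts, used as deposited, and CPM scaled with TMM over the 19 libraries. HTSeq's tallies of read pairs on no gene or ambiguous between genes stayed out of library sizes, and the pairs on genes were 1.15% to 1.74% of those uniquely aligned in 17 libraries and 5.58% and 5.62% in the NOD/ShiLtJ male iPSC. Comparisons used edgeR 4.0.16 in R 4.3.3 (TMM, filterByExpr, glmQLFTest, Benjamini-Hochberg adjusted p under 0.05) in a fit of 17 libraries for cell states and a fit of 14 iPSC in groups of strain, sex and medium. All single-gene adjusted p-values come from these edgeR fits unless DESeq2 1.42.0 is named. Intervals of counts are exact Poisson intervals (scipy 1.17.1) and, like the 3-count limit, cover counting error only.

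The imprinted genes and all gene lists were chosen with earlier results of these data known. Named with values are the imprinted genes called in at least 1 comparison or with at least 100 counts over the libraries. Among the regulators of imprints and DNA methylation and the neighbours, at most 5 are named, by smallest adjusted p. Dnmt1 was added afterwards as the maintenance enzyme, and Dnmt3a and Dnmt3b as the factors lower in iPSC than in EpiSC. Exon overlaps come from GENCODE M21 on GRCm38, where all 43 imprinted genes matched. Clones 1 and 17 in both media are the same by their labels, and the correlation of their deviations from the group means was 0.0241 over 5677 genes. The fits were tested on simulated data. The alternatives were DESeq2, its size factors, no low-count filter, uniquely aligned read pairs as library size, strain as a covariate, male iPSC only, no 129S1/SvImJ iPSC in 2iS, the 4 libraries of the media comparison alone with and without the clone as a block, and each library left out in turn.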

Additional observations from a re-analysis of the deposited data

Results flagged for a closer look

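Among 40 sets of 4 iPSC libraries examined (an imprinted gene in the 129S1/SvImJ clones in ESC/LIF or in the WSB/EiJ clones in 2iS), 6 held a library far from the other 3 by Dixon's criterion. Chance meets it in about 1 of 20 groups of normally distributed values, a rate that does not hold for low counts. A library with 1 count where the others had 0 always meets it. In WSB/EiJ female clone 23, Peg10 measured 1082 CPM (97 counts) where the other WSB/EiJ clones had 163.9 to 257.7, H19 measured 323.4 CPM (29 counts) where the others had 0 to 18.83, and Usp29 measured 11.15 CPM on 1 count where the others had 0. In WSB/EiJ male clone 12, Igf2r measured 46.86 CPM (8 counts) where the others had 98.34 to 103.6. In 129S1/SvImJ male clone 1 in ESC/LIF, H13 measured 29.77 CPM (6 counts) where the others had 72.8 to 76.98. In 129S1/SvImJ female clone 8, Usp29 measured 5.499 CPM on 1 count where the others had 0. Both Usp29 values lie below the 3-count limit.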

How the results depend on the processing

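Of 33 calls of an imprinted gene in a comparison, 8 kept direction and call under every alternative that gave a value: Gnas in iPSC against ESC and EpiSC, Kcnq1ot1 in iPSC against ESC, Grb10, Nnat and Nespas in iPSC against EpiSC, Peg10 between media and Cd81 between WSB/EiJ in 2iS and 129S1/SvImJ in ESC/LIF. Counts of imprinted genes called moved as follows, with the share of all genes called in the same fit in parentheses, and the cause was not tested. For iPSC against ESC (5) they were 9 of 40 tested with no low-count filter (3.57%) and 2 of 17 with male iPSC only (5.16%), and for ESC against EpiSC (5) 1 with uniquely aligned read pairs as library size (13.5%) and 8 with strain as a covariate (18.7%). For 2iS against ESC/LIF (3) the count was 1 with DESeq2 (1.3%) and 1 of 11 with the clone as a replicate block (paired fit, Peg10; 4.72%). For WSB/EiJ against 129S1/SvImJ in ESC/LIF (3) it was 5 of 40 with no filter (4.09%), for WSB/EiJ against NOD/ShiLtJ females (3) 1 with DESeq2 (1.1%), which gave H19 no adjusted p, and for sex (1) 0 with DESeq2 (0.471%), which gave 14 of 17 no adjusted p, 3 of 40 with no filter (0.326%) and 2 with uniquely aligned pairs (1.14%). For NOD/ShiLtJ males against females (5) it was 3 with DESeq2 (24.4%) and 14 with uniquely aligned pairs (79.1%), which reversed Mest (0.51), Inpp5f (0.17) and Nnat (0.68). That scaling moved the median of all genes by 2.43 there, by 0.293, 0.518 and 0.226 in iPSC against ESC, iPSC against EpiSC and ESC against EpiSC, and by 0.195 or less elsewhere. Leaving out 1 library at a time gave 3 in each case for iPSC against ESC, 5 to 6 for iPSC against EpiSC, 1 to 3 for ESC against EpiSC, 1 to 3 for media, 0 to 1 for WSB/EiJ against 129S1/SvImJ males in 2iS, 1 to 4 for WSB/EiJ against 129S1/SvImJ in ESC/LIF, 0 to 2 for WSB/EiJ against NOD/ShiLtJ females, 0 to 2 for sex and 2 to 6 for NOD/ShiLtJ males against females. Without the NOD/ShiLtJ EpiSC, every call of ESC against EpiSC described above was lost, and the count there comes from other imprinted genes. In fits that left 1 library in a group, it was assumed to vary like the other groups. The 12 iPSC were not left out singly. With a median of 146249 gene counts in the 17 libraries, the 23 untested imprinted genes could not be compared at this depth.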

Other observations

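Igf2 and Cdkn1c lie outside the rule for named genes and were chosen after their values were seen. Igf2, the fetal growth factor of the paternal copy, had 30 counts in the 129 EpiSC (247.8 CPM) and 5 in the NOD/ShiLtJ EpiSC (28.48 CPM), 1 to 4 in the ESC and 0 to 2 in the 12 iPSC libraries without NOD/ShiLtJ males. Igf2as, with exons on the opposite strand over 98 bases of Igf2 (Igf2os in the annotation), had 41 counts in the 129 EpiSC and 0 to 5 in the other 18 libraries. Cdkn1c, a cell cycle inhibitor of the maternal copy, had 13 and 4 counts in 129S1/SvImJ male clones 1 and 17 in ESC/LIF and 0 in both in 2iS, and 0 or 1 in the 4 WSB/EiJ iPSC.

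Among the 17 imprinted genes tested between iPSC groups, those with the widest spread among replicate clones were H19 and Grb10, with a biological coefficient of variation (edgeR, 14 iPSC) of 0.439 and 0.365, followed by Peg10 at 0.26, where the median of all genes tested was 0.174. Gnas, at 0.147, lay below that median.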
